A study of Drosophila melanogaster
Gallus gallus with 8 samples.

Results

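In DT40, a chicken B-cell line, chromosome Z carried 3788 of the 89913 DNA:RNA hybrid peaks in the deposited lists. Members were the peaks whose chromosome entry was Z. There were 1235 of 41445 in the wild type list and 2553 of 48468 in the *primpol* list. The lists came from DNA:RNA immunoprecipitation and sequencing (DRIP-seq) with the S9.6 antibody, in wild type cells and in cells deficient in PrimPol. Each genotype had 2 DRIP libraries, 1 input library and 1 DRIP library treated with RNase H, 8 libraries in all. *Drosophila* S2 cells had been added to the DT40 cells of every library, at 3.75 DT40 cells to 1 S2 cell per the labels. Both DRIP libraries of a genotype stand behind a single list, so no value below has a replicate error and no test between genotypes was possible. The 95% Wilson intervals given with shares reflect the counting of peaks alone, each peak taken as an independent draw.

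An R-loop is a DNA:RNA hybrid with a displaced single strand of DNA, and the S9.6 antibody binds the hybrid. PrimPol, an enzyme with primase and polymerase activities, can lay down a new primer so that replication resumes past a block. Z is the large sex chromosome of birds: males carry a pair of Z chromosomes, while females carry a single Z and a W. Chromosomes 4 and 5, the autosomes nearest to Z in length, and chromosomes 1 to 15 together are given for comparison. Coordinates are those of Galgal5, counted from 1. No annotation or sequence of that build was used here, so the genes at these positions are not named.

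The label of a sex chromosome was first set against the input background. The peak caller's local background (lambda), worked out from input coverage, had a median at Z peaks of 0.516 times that of chromosomes 1 to 15 in wild type and 0.485 times in *primpol*. Lambda cannot fall below a lower limit that the caller sets from input tags, fragment length and an effective genome size of 1870 Mb. The lowest lambda at Z peaks was 0.469 times the median of chromosomes 1 to 15 in wild type and 0.423 times in *primpol*. The Z medians thus lay close above the limit, and input coverage below it would not show in them. Within 1% of the limit lay 249 wild type (20.2%) and 318 *primpol* Z peaks (12.5%). On chromosomes 1 to 15 the corresponding numbers were 31 and 24 peaks. Peak heights followed the same order. The height is the mean fragment pileup of the peak, and each list is on the scale of its own input depth. The median on Z was 9.46 in wild type and 11.2 in *primpol*, or 0.679 and 0.623 times that of chromosomes 1 to 15 in the same list. Fold enrichment over input was higher on Z than on chromosomes 1 to 15, with medians of 2.98 against 2.54 in wild type and 2.68 against 2.28 in *primpol*. These medians cover called peaks only, and a peak on a lower background needs a higher fold enrichment to be called. They are therefore no measure of the hybrid level on Z. The lists rested on 46425192 wild type and 44735404 *primpol* DRIP tags, and on 23107894 and 30302032 input tags.

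Z was sparsely covered in both lists. Wild type peaks covered 1.24 Mb, or 1.52% of the 82.0 Mb between position 1 and the last peak end, and *primpol* peaks covered 2.76 Mb, or 3.37%. On chromosome 4 the covered shares were 5.73 and 7.39%. There were 15.1 wild type and 31.2 *primpol* peaks per Mb of Z, against 44.2 and 51.2 per Mb on chromosomes 1 to 15. The *primpol* list thus held 2.07 times as many Z peaks as the wild type list, while the ratio was 1.22 on chromosome 4, 1.19 on chromosome 5 and 1.16 on chromosomes 1 to 15. The Z ratio depended on how many DRIP fragments a peak needed, and is taken up again with the pileups.

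Z peaks were narrower than those of the autosomes. The median width of wild type peaks was 663 bp (interquartile range 380 to 1178 bp), and that of *primpol* peaks was 728 bp (431 to 1284 bp). On chromosomes 1 to 15 the medians were 811 and 855 bp. The narrowest wild type peak measured 183 bp and the narrowest *primpol* peak 187 bp, the fragment length used for each list, and 19 and 45 peaks had exactly that width. Peaks of at least 5 kb numbered 14 in wild type (1.13%) and 35 in *primpol* (1.37%). They held 8.10 and 8.53% of the covered bases on Z, against 14.8 and 15.7% on chromosomes 1 to 15.

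Where a peak of each list overlapped the other alone, the *primpol* peak was usually the wider. Of 677 such pairs on Z, the *primpol* peak was wider in 476 (70.3%, 95% Wilson interval 66.8 to 73.6%). The share was 60.7% on chromosome 4 (58.5 to 62.8%) and 59.8% on chromosome 5 (57.1 to 62.4%). These intervals reflect counting alone and are no test between chromosomes. The lowest *primpol* Z peak also rested on fewer DRIP fragments than the lowest in wild type, as given below. The part of this in the widths was not tested. The median ratio of *primpol* to wild type width was 1.33 on Z (interquartile range 0.939 to 2.51) and 1.10 on chromosome 4. In 242 of the Z pairs (35.7%) the wild type peak lay wholly within the *primpol* peak, and in 76 (11.2%) the reverse was found. Peak edges were seldom shared. The median offset was 262 bp between starts and 264 bp between ends, and in 24 pairs (3.55%) both edges lay within 50 bp of each other.

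The gaps between neighbouring Z peaks were uneven. The median gap from the end of a peak to the start of the next was 28.03 kb in wild type (interquartile range 3.44 to 80.4 kb), where the mean was 65.3 kb. For *primpol* the median was 13.8 kb (3.16 to 35.5 kb) and the mean 31.0 kb. The lower quartiles were alike in both lists and close to those of chromosome 4, at 3.14 and 2.46 kb. Long gaps took up more of Z. Gaps of at least 100 kb numbered 228 in wild type and 148 in *primpol*, and together took up 64.6 and 37.5% of the length of Z. On chromosome 4 they took up 17.7 and 15.4%. The closest neighbours were 735 bp apart in the wild type list and 750 bp in that of *primpol*, just above 4 fragment lengths (732 and 748 bp) in each list.

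Peaks of both lists ran from the first to the last Mb of Z, with 1 large interruption. The first peak began at 138485 in wild type and at 67232 in *primpol*, and the last ended at 81951217 and 81949946. The longest stretches without a peak lay in nearly the same place in both lists, from 73224509 to 78515660 in wild type (5.29 Mb) and from 73318412 to 78515624 in *primpol* (5.20 Mb), and 3 *primpol* peaks fell within the wild type gap. The 4 windows of 1 Mb within it were the only ones of 82 without a peak, and they were empty in both lists. On chromosome 4 the longest gap was 876 kb in wild type and 808 kb in *primpol*. Reads that matched more than 1 place were discarded by the authors. How much of this region uniquely placed reads can cover is not in the peak lists, and its part in the gap was not tested. The next longest gaps overlapped, from 80051365 to 81084304 in wild type (1.03 Mb) and from 80060711 to 80993796 in *primpol* (0.933 Mb), with 6 *primpol* peaks within the wild type gap. The *primpol* gaps in both places held no wild type peak. The third longest gaps lay apart. The third lay from 8062386 to 8749946 in wild type, where the *primpol* list held 3 peaks, and from 141202 to 679847 in *primpol*, where the wild type list held 2 peaks.

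**Figure D1:**
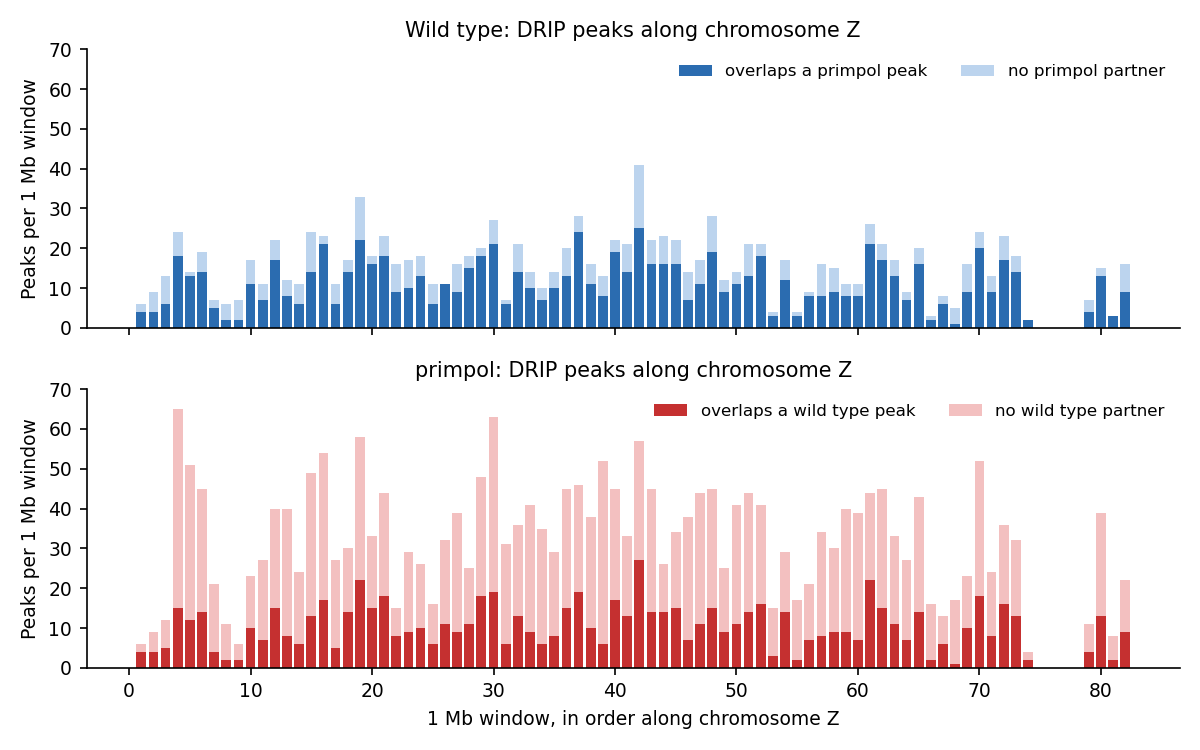
Number of peaks per 1 Mb window of chromosome Z (vertical axis) by window in order along the chromosome (horizontal axis), for wild type (top, blue) and *primpol* (bottom, red), with dark bars for peaks that overlap a peak of the other list and pale bars for those that do not. The *primpol* list held more peaks in 73 of the 78 windows with any peak, and 4 windows between the last long run and the distal end held none in either list.

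Over the 78 windows with any peak, the number per window had a median of 16 in wild type, with a range of 2 to 41, and of 33 in *primpol*, with a range of 4 to 65. The *primpol* number was the higher in 73 windows, equal in 2 and lower, by 1 peak each, in 3. The numbers in the lists had a Spearman correlation of 0.749 across these windows. Each window has the same sequence in both lists, and the part of mappability or base composition in this correlation was not tested. The densest wild type windows began at 41000001 with 41 peaks, at 18000001 with 33 and at 36000001 with 28. The densest *primpol* windows began at 3000001 with 65 peaks, at 29000001 with 63 and at 18000001 with 58. The window at 18000001 was therefore among the densest of both lists. That at 3000001 held 24 wild type peaks, and 50 of its 65 *primpol* peaks (76.9%) overlapped none of them. Among all *primpol* Z peaks 67.9% had no partner. The shares were 42.2% of the entire *primpol* list and 30.3% of the entire wild type list. Among 62 windows with at least 10 wild type peaks the ratio of *primpol* to wild type peaks had a median of 2.05. It was highest, at 4, in the window beginning at 38000001, which was singled out after its values were seen and held 13 wild type and 52 *primpol* peaks.

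Dense stretches, defined as runs of at least 5 peaks with no more than 10 kb between neighbours, were few on Z. The wild type list held 11, with 64 peaks (5.18% of its Z peaks), and the *primpol* list held 55, with 322 peaks (12.6%). The same rule took in 15.9% of wild type and 25.1% of *primpol* peaks on chromosome 4. Stretches on Z had a median length of 18.6 kb in wild type and 24.0 kb in *primpol*, and none held more than 9 peaks. The wild type stretch with the most peaks lay at 40067231 to 40113313, with 9 peaks in 46.1 kb. The *primpol* list had a stretch of 7 peaks at 40068508 to 40111500, in nearly the same place. Next in wild type came 60314195 to 60352771 with 7 peaks, where *primpol* had 8, and 19422541 to 19443295 with 6, where *primpol* peaks numbered 5. In *primpol* the stretches with the most peaks lay at 3275595 to 3315130 and at 12189307 to 12243062, with 9 peaks each, and at 3416760 to 3465945, with 8. In each of these 3 only 2 peaks overlapped a wild type peak. The third of them contained the widest peak on Z.

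Wild type stretches were mostly found again in *primpol*, but most *primpol* stretches were not stretches in wild type. Of the 11 wild type stretches, 8 overlapped a *primpol* stretch, and these were met by 8 of the 55 *primpol* stretches. All peaks were shared in 7 of the 11 wild type stretches and in 1 of the 55 in *primpol*. In 5 *primpol* stretches no peak was shared, and 4 stretches held no wild type peak at all, among them 18647988 to 18677859 with 7 *primpol* peaks. Peaks within *primpol* stretches lacked a partner in 59.3% of cases (53.9 to 64.5%), against 69.1% (67.2 to 71.0%) of *primpol* peaks elsewhere on Z. In wild type the shares without a partner were 10.9% (5.40 to 20.9%) within stretches and 29.8% (27.3 to 32.5%) elsewhere.

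The overlap between the lists on Z was lopsided. At a minimum of 1 bp, 879 of the 1235 wild type peaks (71.2%, 68.6 to 73.6%) overlapped a *primpol* peak, close to the 70.9% on chromosome 4 and 71.2% on chromosome 5. In the *primpol* list 820 of the 2553 peaks met a wild type peak and 1733 (67.9%, 66.04 to 69.7%) did not. Both can be read against the 30.3% of wild type and 42.2% of *primpol* peaks without a partner genome-wide. On chromosome 4 the *primpol* share was 43.7% (42.3 to 45.1%), and on chromosome 5 it was 41.2% (39.5 to 43.03%). Peaks without a partner held 1.298 Mb, or 47.0% of the bases covered by *primpol* peaks on Z, against 21.7% on chromosome 4. The *primpol* peaks without a partner were spread along Z. In windows of 5 Mb their share of *primpol* peaks ranged from 57.4% (50.4 to 64.2%) at 40000001 to 45000000 to 75.6% (68.5 to 81.5%) at 55000001 to 60000000. The shared peaks were mostly simple matches. Of the 820 *primpol* peaks, 736 met a single wild type peak and 84 met 2 or 3.

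The *primpol* Z peaks without a wild type partner were narrower than the shared ones. Their median width was 605 bp (interquartile range 367 to 923 bp), against 1303.5 bp (699.5 to 2320 bp) for shared peaks. In 75.7% of all pairings of a peak without a partner and a shared peak, the former was the narrower. A width of at least 2 kb was reached by 73 (4.21%) of the peaks without a partner and by 265 (32.3%) of the shared ones. All 35 peaks of at least 5 kb were shared. A wide peak has more bases with which to meet another, so some of this difference follows from the definition. When the *primpol* Z peaks were divided by width into 4 groups of nearly equal number, the share without a partner fell from 86.7% (83.8 to 89.1%) among peaks of 187 to 430 bp to 34.9% (31.3 to 38.7%) among those of 1284 to 12560 bp. The same order held on chromosome 4, where the medians were 569 and 1431 bp. The wild type list behaved alike, with medians of 456.5 bp for its 356 Z peaks without a partner and 786 bp for the shared ones.

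**Figure D2:**
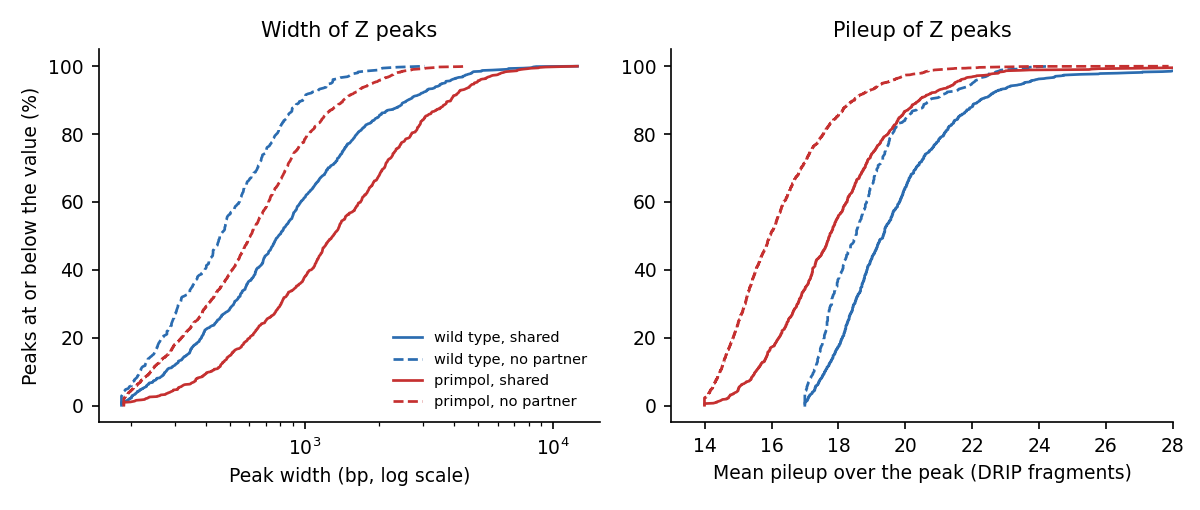
Cumulative share of Z peaks (vertical axis, %) by width (left, bp, log scale) and by mean pileup (right, DRIP fragments), for wild type (blue) and *primpol* (red), with solid lines for peaks shared between the lists and broken lines for peaks without a partner. Broken lines lie to the left of the solid line of the same colour in both panels, with median widths of 605 against 1303.5 bp in *primpol*.

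They were also lower. The median pileup was 10.8 for *primpol* Z peaks without a partner (interquartile range 10.2 to 11.6) and 12.02 for shared peaks (11.2 to 12.9). The former was the lower in 75.2% of all pairings. Within each of the 4 width groups the ratio of the medians was between 0.906 and 0.931, against 0.899 over all. Fold enrichment differed less, with medians of 2.66 and 2.75, and median local background was also lower at peaks without a partner, at 3.37 against 3.67. Lambda lay at its lower limit at 276 (15.9%) of the peaks without a partner and at 42 (5.12%) of the shared ones. The −log10 q-value was 2 or more at 129 (7.44%) and 193 (23.5%), respectively.

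Pileups were then put on the scale of DRIP fragments, by multiplying with the ratio of DRIP to input tags of the list, 2.01 in wild type and 1.48 in *primpol*. The lowest Z peak had a mean of 16.997 DRIP fragments in wild type and 13.996 in *primpol*, or 17 and 14 when rounded. The median was 19.01 for wild type (interquartile range 18.1 to 20.3) and 16.5 for *primpol* (15.3 to 17.9). On this scale the median local background at Z peaks was 5.002 fragments in wild type and 5.12 in *primpol*, and the numbers of DRIP tags differed by a factor of 0.964. Z peaks were thus called from fewer stacked DRIP fragments in *primpol*, at nearly the same background. The lowest values on chromosomes 1 to 15 were also 17 and 14 fragments, but few peaks lay there. The lowest 10% ended at 23.5 and 21.7 fragments on those chromosomes, compared with 17.5 and 14.6 on Z.

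**Figure D3:**
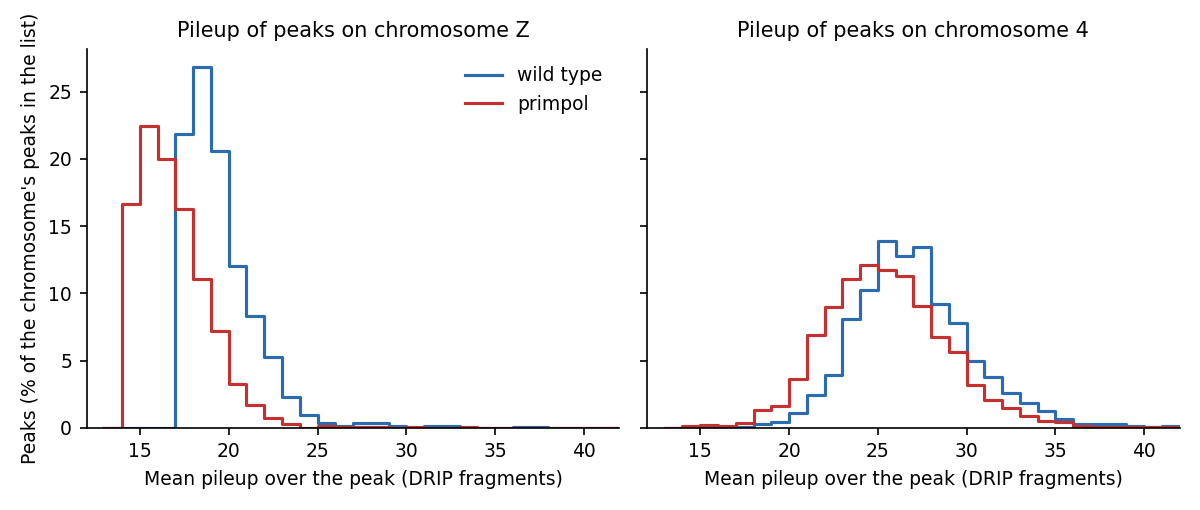
Distribution of mean pileup in DRIP fragments (horizontal axis, bins of 1 fragment) as a percentage of the peaks of chromosome Z (left) and chromosome 4 (right), for wild type (blue) and *primpol* (red). On Z each list begins abruptly at its lowest value, 17 fragments in wild type and 14 in *primpol*, whereas few peaks of chromosome 4 lie near these values.

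Of the 2553 *primpol* Z peaks, 1032 (40.4%) reached the lowest wild type value, against 96.3% of all *primpol* peaks and 99.5% of those on chromosome 4. They comprised 539 (65.7%) of the shared peaks and 493 (28.4%) of those without a partner. With this floor, chosen after seeing the data, the ratio of *primpol* to wild type Z peaks was 0.836 in place of 2.07, and on chromosomes 1 to 15 it was 1.16, as before. With the floor set per DRIP tag, 1325 *primpol* peaks were kept and the ratio was 1.07. A floor of this kind removes *primpol* peaks only and so can only lower the ratio. The excess of *primpol* peaks on Z was therefore found among peaks of fewer than 17 fragments, a range in which the wild type list holds no Z peak. The share of *primpol* Z peaks without a partner was 47.8% with the floor, and the share of wild type Z peaks with a partner fell to 48.4%. With the *primpol* list scaled to the wild type input depth the ratio on Z was 1.25, against 0.696 on chromosomes 1 to 15. This scaling was computed on the called peaks, with no new peak calling. The excess on Z relative to these chromosomes was kept under it and turned with the fragment floor. That floor was set at the lowest wild type Z peak. It was reached by 99.7% of *primpol* peaks on chromosomes 1 to 15 and by 40.4% on Z, so the turn follows from where it was set.

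The share of peaks without a partner was highest among the lowest peaks of each list. Among *primpol* Z peaks of 14 to 15 DRIP fragments, 392 of 424 (92.5%, 89.5 to 94.6%) had no wild type partner. The share was 72.2% (68.2 to 75.9%) at 16 to 17 fragments, 45.0% (40.5 to 49.5%) at 18 to 20 and 30.9% (24.1 to 38.7%) at 20 to 25. Of the 10 *primpol* Z peaks with 25 fragments or more, 9 had a partner. In wild type the share without a partner was 45.9% (40.1 to 51.9%) at 17 to 18 fragments and 15.1% (11.2 to 20.02%) at 20 to 22. It was 19.05% (12.7 to 27.6%) at 22 to 25, where the intervals overlap, and all 23 peaks with 25 fragments or more had a *primpol* partner. At 17 to 18 fragments, a bin common to both lists, the *primpol* share was 58.4% (53.6 to 63.1%), above the wild type interval, but the lists in which a partner was sought differed in length. Within the 677 matched pairs, the ratio of *primpol* to wild type fragments had a median of 0.913 on Z and 0.967 on chromosome 4, and the *primpol* peak had more fragments in 117 pairs (17.3%) on Z and in 38.2% of pairs on chromosome 4. The ratio as deposited was 1.24 on Z, since each list is scaled to its own input. None of these values carries a spike-in scale.

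**Figure D4:**
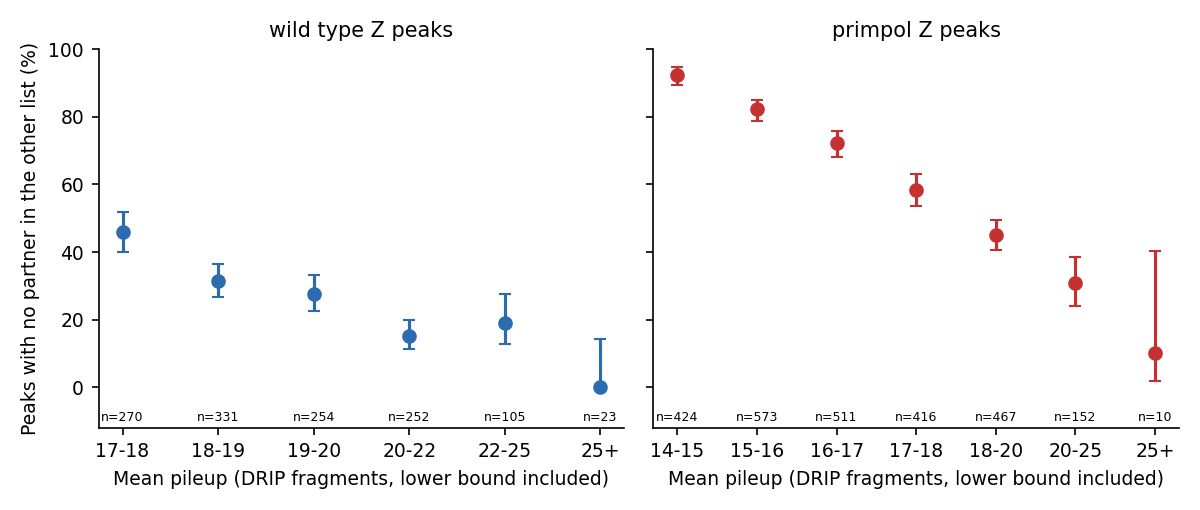
Share of Z peaks with no partner in the other list (vertical axis, %) by mean pileup in DRIP fragments (horizontal axis, bins with their number of peaks n), in wild type (left, blue) and *primpol* (right, red), where points are shares and bars 95% Wilson intervals. The share fell from 92.5% at 14 to 15 fragments to 30.9% at 20 to 25 in *primpol*, and from 45.9% at 17 to 18 to 15.1% at 20 to 22 in wild type, where it was 19.05% at 22 to 25 and the intervals of these bins overlap.

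Counted in bases, the *primpol* Z peaks without a partner lay farther from wild type peaks than those of chromosomes 4 and 5. Their median distance to the nearest wild type peak, edge to edge, was 18.9 kb (interquartile range 4.83 to 44.2 kb), and the greatest was 290 kb. Within 1 kb of a wild type peak lay 156 of them (9.002%, 7.74 to 10.4%), and 615 (35.5%, 33.3 to 37.8%) lay within 10 kb. Shared peaks lie at their partner by definition, so their distance was taken to the nearest wild type peak they did not overlap. It had a median of 9.35 kb (1.77 to 32.7 kb), and 51.2% (47.8 to 54.6%) had such a peak within 10 kb. Shared peaks were picked by their overlap with a wild type peak, so uneven spacing of wild type peaks also enters this distance. On chromosome 4 the medians were 5.80 kb without a partner and 5.67 kb for shared peaks, and on chromosome 5 they were 6.15 and 5.66 kb.

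Since wild type peaks are sparse on Z, distances were also divided by the mean spacing of wild type peaks, 66.4 kb on Z and 23.3 kb on chromosome 4. The median distance without a partner was then 0.284 of the spacing on Z and 0.249 on chromosome 4. For shared peaks it was 0.141 on Z and 0.244 on chromosome 4. On this scale the peaks without a partner resembled those of the autosomes, and the shared Z peaks lay nearer to further wild type peaks. The mean spacing takes in the long gaps. In wild type the median gap was 0.429 of the mean gap on Z and 0.526 on chromosome 4. Distances were not divided by the median gap. Of the peaks without a partner, 9.002% lay within 1 kb of a wild type peak on Z, against 17.6% on chromosome 4 and 17.8% on chromosome 5. That limit of 1 kb was not divided by the spacing, so these shares also reflect how sparse wild type peaks are on Z. Wild type Z peaks without a partner lay closer to the denser *primpol* list, at a median of 2.92 kb, and 31.5% (26.9 to 36.5%) were within 1 kb of a *primpol* peak.

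**Figure D5:**
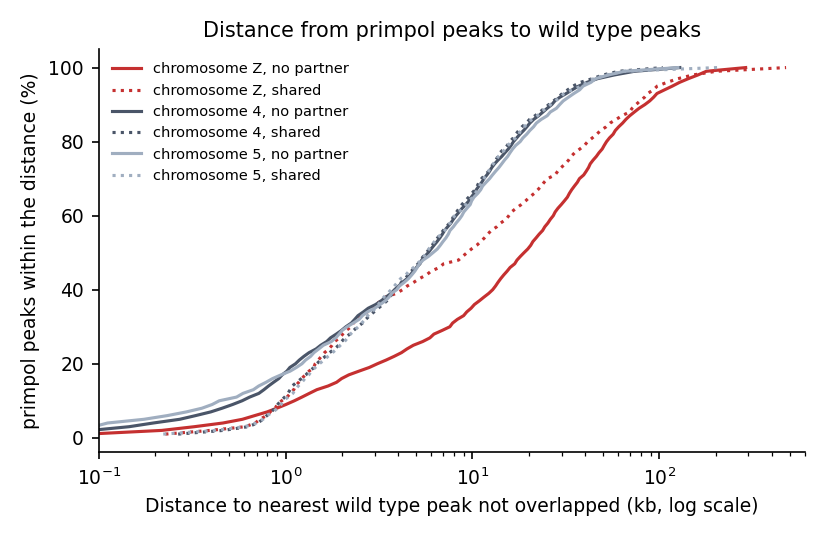
Cumulative share of *primpol* peaks (vertical axis, %) by distance to the nearest wild type peak that they do not overlap (horizontal axis, kb, log scale) on chromosomes Z (red), 4 (dark grey) and 5 (light grey), with solid lines for peaks without a wild type partner and dotted lines for shared peaks. On Z the median was 18.9 kb without a partner and 9.35 kb for shared peaks, while the medians of chromosomes 4 and 5 were 5.66 to 6.15 kb, and their lines lie apart at short distances, where 17.6 and 17.8% of peaks without a partner lay within 1 kb against 11.3 and 10.6% of shared peaks.

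The widest and highest Z peaks were shared. The widest peak of both lists lay at 3445698 to 3458279 in wild type (12582 bp) and at 3445753 to 3458312 in *primpol* (12560 bp), with edges that differed by less than 60 bp. Its pileup was 21.96 fragments in wild type and 22.1 in *primpol*. Next came 34237342 to 34245913 in wild type (8572 bp), which was joined with a peak of 498 bp into a single *primpol* peak of 10759 bp at 34235198 to 34245956. The third in wild type, at 34100624 to 34108965 (8342 bp), ranked 5 by width in *primpol*. The third in *primpol*, at 15173826 to 15183172 (9347 bp), ranked 5 in wild type.

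The highest Z peak stood well above the rest in both lists. It lay at 66275684 to 66277430 in wild type, with 74.3 fragments and a fold enrichment of 9.38, and at 66275660 to 66277426 in *primpol*, with 53.9 fragments and a fold enrichment of 7.99. The second in wild type, at 78515661 to 78516237, had 37.9 fragments and bordered the distal end of the longest gap. Its *primpol* partner had 26.9 fragments and ranked 7. The third in wild type, at 1032550 to 1032750, was 201 bp wide and had 36.3 fragments, and its *primpol* partner was the second there, with 33.8. The third in *primpol* was a wider peak at 41031021 to 41035844 (4824 bp), with 30.6 fragments against 32.5 in wild type. As deposited, the pileup of the highest peak was 37.0 in wild type and 36.5 in *primpol*.

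Few high peaks lacked a partner. Of the *primpol* peaks without one, the highest lay at 42701714 to 42706114, with a width of 4401 bp, 27.9 fragments and a fold enrichment of 3.75. It ranked 5 by pileup among *primpol* Z peaks and was also the second widest without a partner. It belonged to a *primpol* stretch of 8 peaks at 42697327 to 42736401, and the nearest wild type peak was 9.95 kb away, in a wild type stretch of 5 peaks at 42716063 to 42738513. The next by height lay at 54965681 to 54966091, with 23.8 fragments, a fold enrichment of 2.40 and 174 kb to the nearest wild type peak, and at 33933593 to 33934381, with 23.4 fragments and 76.3 kb. The widest without a partner lay at 55531906 to 55536376 (4471 bp, 17.7 fragments), and the third widest at 58906024 to 58910265 (4242 bp, 16.98 fragments). The farthest from any wild type peak lay at 6713235 to 6713895 (290 kb), 54406323 to 54408513 (280.2 kb) and 8307133 to 8307394 (245 kb), with 15.97, 17.2 and 14.1 fragments. In wild type the highest peaks without a partner were all narrow. They lay at 1573776 to 1573990 (215 bp, 24.3 fragments), 13709067 to 13709272 (206 bp, 23.7 fragments) and 51376941 to 51377123 (183 bp, 23.6 fragments).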

How the data were processed

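The authors trimmed reads with Trim Galore 0.4.4, aligned them with Bowtie2 2.2.6 to Galgal5 and to the *Drosophila* genome, kept uniquely matching chicken reads, and called broad peaks with MACS2 2.1.1.20160309 for each genotype against its own input. Per the file headers, duplicates were removed, q-value cutoffs were 0.05 and 0.1, and DRIP data were reduced to the size of the input, the smaller data set. Deposited values are peak positions, the pileup signal, fold enrichment (a ratio of pileup to local background, each plus 1), −log10 q-values, and a score that averages −log10 p-values over the peak. Precision is limited by the tags in the lists and by the absence of lists per replicate.

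Titles of the libraries gave their genotype and treatment. Lambda was computed from pileup and fold enrichment, and fragments as pileup times DRIP tags over input tags. Overlap was counted at 1 bp or more, and bedtools 2.31.1 gave equal counts. Python 3.11.15, numpy 2.4.6, pandas 2.3.3, scipy 1.17.1 and matplotlib 3.10.9 were used, and functions were tested on simulated data. The widest, highest and, without a partner, farthest 3 peaks, the 3 longest gaps, and the 3 stretches and windows with the most peaks were named, ties by lower start. Members, lists and rules were chosen with earlier results of these data known. Alternatives covered overlap, q-value, merging, list size, depth, columns, gap limits and windows. RNase H-treated libraries and spike-in reads were not used here, and gene context was not analysed here.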

Additional observations from a re-analysis of the deposited data

How the results depend on the processing

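The floor on DRIP fragments, chosen after seeing the data, turned the direction of several values. With it the ratio of *primpol* to wild type was 0.836 for the number of Z peaks and 1.19 for the median gap. The ratio for the number of peaks on Z, divided by the same ratio on chromosomes 1 to 15, was 0.723. The floor removes *primpol* peaks only. With it the width ratio was 1.39, the shared wild type share 48.4%, and the *primpol* share without a partner 47.8%. For peaks without a partner, width was then 0.363 and pileup 0.967 times that of shared peaks, and the distance 14.997 kb. There were then 7 *primpol* dense stretches, fewer than the 11 of wild type. Set per DRIP tag, this floor gave a ratio of peak numbers of 1.07. The primary values, in the same order, were 2.07, 0.492, 1.78, 1.10, 71.2%, 67.9%, 0.464, 0.899, 18.9 kb and 55.

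Scaling to wild type input depth, computed on called peaks with no new calling, also removes *primpol* peaks only. With it the ratios were 1.25 for number, 1.29 for width and 0.828 for gaps. The shares were 57.8 and 58.1%, width 0.410, pileup 0.919 and dense stretches 14. Among the top 1000 Z peaks of each list by −log10 q-value, width and gap ratios were 1.37 and 0.956, the shares 46.9 and 56.7%, width 0.386, pileup 0.931, and dense stretches 6 in wild type and 5 in *primpol*, so that their order also turned. Restriction to −log10 q-values of 2 or more left 153 and 322 peaks, and gave a width ratio of 1.33, shares 43.1 and 80.7%, width 0.403, pileup 0.928, distance 208 kb, and dense stretches 0 and 1.

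With overlap of at least 50% of both peaks, the shares were 26.9 and 87.0%, width 0.501, pileup 0.891 and distance 10.2 kb. With peaks within 1 kb counted as shared, the shares were 80.2 and 61.8%, width 0.510 and distance 22.2 kb. Merging peaks within 1 kb gave a width of 0.373 and 3 and 35 dense stretches. In place of pileup, fold enrichment gave 0.967 and the −log10 q-value 0.860, and within 4 groups by width pileup gave 0.928, 0.913, 0.931 and 0.906. Gap limits of 5 and 20 kb gave 7 and 25 dense stretches in wild type, and 18 and 136 in *primpol*. The *primpol* list held more peaks in 97.4% of 2 Mb windows, against 93.6% of 1 Mb windows. The other 18 values stayed within their interval or within 1.5 times. The cause of these changes was not tested.

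No paired analysis was possible because the replicates of a genotype stand behind a single list; leaving out a replicate could not be done either. Z pileups close to the lowest called value limit what the lists can show of peaks with fewer fragments in wild type.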

Other observations

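The W chromosome, the other sex chromosome of birds, held 5 wild type and 16 *primpol* peaks. Their median pileup was 19.3 and 15.8 DRIP fragments, and their median local background 0.493 and 0.423 times that of chromosomes 1 to 15. Of these, 4 wild type and 3 *primpol* peaks overlapped a peak of the other list. Without a partner were 30.3% of the entire wild type list and 42.2% of the entire *primpol* list. On Z the shares were 28.8 and 67.9%. The *primpol* value of local background equals the lower limit of lambda.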
